A study of Mus musculus with 8 samples.

Results

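Genes of the renal proximal tubule, 10 in number, were followed through bulk RNA sequencing of kidney, small intestine, lung and liver. They were chosen by name, as genes through which this part of the nephron takes back filtered protein, phosphate, bicarbonate and inositol, together with a transcript that is characteristic of its cells in male mice. The members are Lrp2, Cubn, Amn and Dab2, which build the endocytic receptor, the phosphate transporters Slc34a1 and Slc34a3, the sodium bicarbonate cotransporter Slc4a4, the sodium proton exchanger Slc9a3, the inositol oxygenase Miox, and Kap. All 10 symbols were found among the 52195 genes of the expression table. The table held 8 libraries, 2 for each of the 4 tissues, made from polyadenylated RNA of mice of the inbred strain C57BL/6 (C57BL/6J by the study's methods), at 6 to 10 weeks of age. The labels name no engineered allele and no treatment, and the study describes the animals as male. Each library was made from excised tissue ground to powder, so a value is the average over all cell types of that piece, and fewer cells of a type cannot be told apart from less RNA per cell. The 2 libraries of a tissue are biological replicates. By the study's methods each mouse gave all 4 tissues, so that libraries of different tissues share animals, but no label ties a replicate number to a mouse.

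Cells of the proximal tubule reabsorb most of what the glomerulus filters. Megalin, encoded by Lrp2, and cubilin, encoded by Cubn, are very large receptors on the apical membrane that bind filtered proteins and vitamin carriers. Cubilin has no membrane span of its own and reaches the surface with amnionless, encoded by Amn, while the adaptor Dab2 links the tail of megalin to clathrin. In the ileum cubilin and amnionless take up intrinsic factor with vitamin B12, and megalin is also known from epithelia such as that of the lung. Slc34a1 and Slc34a3 carry phosphate with sodium across the apical membrane, Slc9a3 exchanges sodium for protons there, in the gut as in the kidney, and Slc4a4 returns bicarbonate to the blood at the basolateral side. Miox opens the ring of inositol in the tubule cell, and Kap encodes an androgen-regulated protein of mouse kidney.

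The values are FPKM, read fragments scaled to exon length and to the size of the library, and were compared after log2(FPKM + 1), which shrinks differences between low values. A gene was tested if its FPKM was at least 1 in at least 2 libraries, which 16328 genes met. All 10 members were among them, and 9 passed also without the kidney libraries. Slc34a3 passed only through kidney and so had to be higher there, and it is described by its values, outside the counts of called members. Slc34a1, Miox and Kap passed without kidney on at most 0.362% of their kidney mean, near other kidney genes given below. Where those reads came from was not tested, so the filter may have decided their calls too. A gene was called when the adjusted p from limma was under 0.05 and the absolute log2 difference over 1. The libraries held between 9164170 reads on genes, in liver replicate 1, and 21444568, in kidney replicate 1, so that 3 reads on a gene with 1 kb of exons gave an FPKM of 0.140 to 0.327. Values under 3 reads are not told from 0, and this floor covers counting error only. The tissues carried the markers of their main cells. A list of 5 enterocyte genes summed to 6311 and 7943 FPKM in small intestine and to at most 62.4 elsewhere, 4 genes of alveolar type 2 cells summed to 14193 and 16378 in lung and at most 19.8 elsewhere, and 5 hepatocyte genes to 48744 and 53850 in liver and at most 534 elsewhere.

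In kidney, all 9 members that passed without kidney were called above the mean of the other 3 tissues, by log2 differences from 2.12 for Slc9a3 to 9.48 for Kap. The limit given above for Slc34a1, Miox and Kap holds for this count and for those that follow. Among all genes tested, 8.65% were called higher in this comparison and 16.1% lower, and the median log2 difference was -0.34. With median-of-ratios scaling that median was -0.10, and the share of higher genes among those called went from 35.0% to 49.2%. The same 9 were also called above lung, where the background of higher calls was 8.87%, and above liver, where it was 16.2%. Against small intestine 6 of 9 were called higher, with a background of 10.7% (18.8% lower), and Cubn, Amn and Slc9a3 were not. The sizes of the differences from the mean of the other tissues depended on how low values were treated, and were 4.04 with a pseudocount of 0.1 and 5.30 with limma-voom on recovered reads for Slc9a3, 4.25 and 5.53 for Cubn, and 6.68 and 7.54 for Lrp2 against 4.80 here, with all 9 called in both. These comparisons share the kidney libraries, so their calls are not independent of each other. The scaling moved the share of higher genes among those called from 17.6% to 50.1% against lung, from 70.1% to 51.2% against liver and from 36.3% to 47.9% against small intestine.

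Both kidney libraries lay above the other 6 libraries in 6 of the 9, as they did in 8.6% of all genes tested. These were Lrp2, Dab2, Slc34a1, Slc4a4, Miox and Kap, and each had an exact two-sided permutation p of 0.0357, which is as low as choosing 2 of 8 libraries can give. For Cubn the exact permutation p was 0.0714, for Amn 0.357 and for Slc9a3 0.429, and in each of these 3 genes at least 1 small intestine library reached into or above the kidney values.

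**Figure D1:**
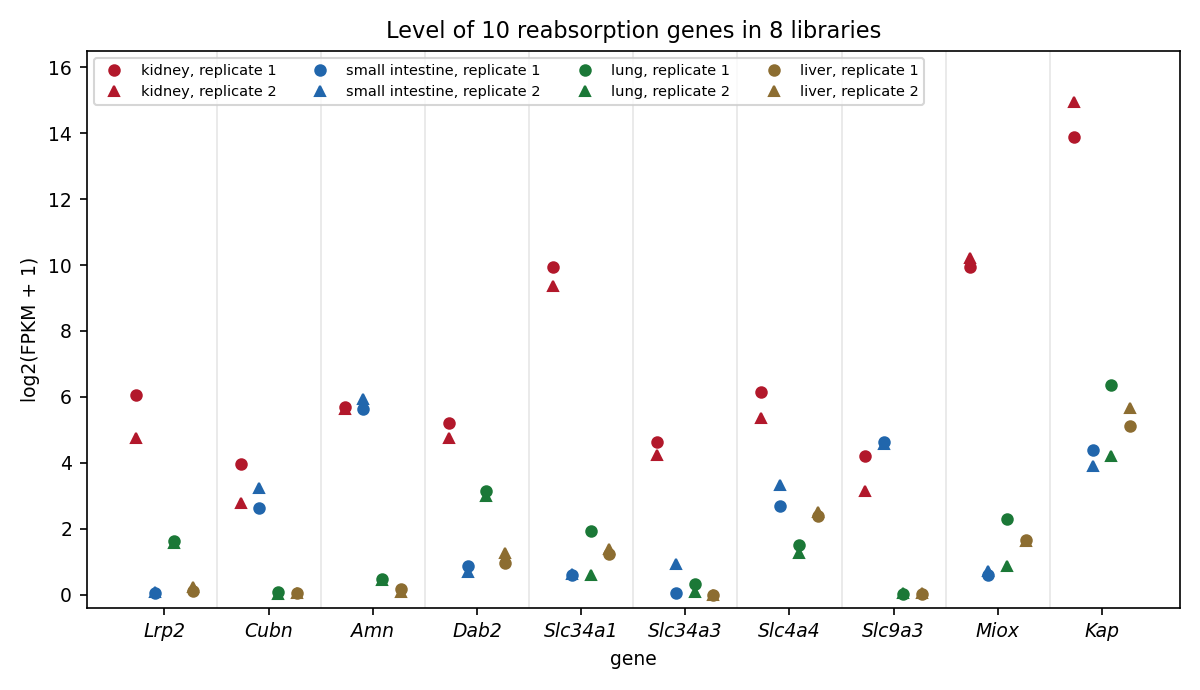
Level of each of the 10 genes in each of the 8 libraries, as log2(FPKM + 1), with a circle for replicate 1 and a triangle for replicate 2 and a colour for each tissue. Kidney stands above the other tissues in 7 genes (with Slc34a3, which passed the filter only through kidney), small intestine meets kidney in Cubn, Amn and Slc9a3, and lung is the next highest tissue in Lrp2 and Dab2.

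The endocytic receptor genes divided between the organs. Lrp2, the gene of megalin (chr2:69424340-69586065, minus strand, GRCm38, 80 exon blocks), had an FPKM of 65.5 and 26.1 in kidney, 2.08 and 1.93 in lung, 0.0719 and 0.162 in the liver, and 0.0448 and 0.0476 in small intestine. The tissues did not overlap, and lung was the only other organ with an FPKM over 1. In liver (11 and 28 reads) and small intestine (7 and 9 reads) Lrp2 was at 0.0979% to 0.355% of its kidney mean. That is near the level of other kidney genes given below, and small intestine and liver were not called apart (-0.09, adjusted p = 0.859, limma). Cubn (chr2:13276338-13491813, minus strand, 66 exon blocks) was at 14.7 and 5.90 in kidney and at 5.20 and 8.50 in small intestine, whereas lung and liver held between 4 and 8 reads per library, an FPKM of at most 0.0549. Thus the kidney and small intestine values of Cubn interleaved, and those of lung and liver stayed near the floor. A stretch of 368 bases (2.46% of the exon length) is shared with Gm13270 on the opposite strand, and in Dab2 one of 211 bases (2.87%) with Gm18888.

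Amn, the membrane anchor of cubilin (chr12:111271095-111276426, plus strand, 11 exon blocks), had nearly the same level in both organs that use cubilin, with 50.7 and 48.6 in kidney and 49.1 and 60.3 in small intestine. In lung it was at 0.389 and 0.349, and in liver at 0.118 and 0.0526, which are 2 reads and 1 read. Dab2, the clathrin adaptor (chr15:6299788-6440712, plus strand, 22 exon blocks), took the other course, with 35.9 and 25.7 in kidney, 7.80 and 6.94 in lung, 0.936 and 1.39 in the liver, and 0.844 and 0.613 in small intestine. Lung was the second tissue for Dab2 as for Lrp2, and small intestine the lowest.

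Tests between single tissues bore on the same division. Cubn in kidney against small intestine differed by 0.44 on the log2 scale (95% interval -0.44 to 1.33, adjusted p = 0.382, limma), and the outcome rested on single kidney libraries, since the difference was 1.04 (adjusted p = 0.01996) without kidney replicate 2 and -0.15 without kidney replicate 1. Amn differed by -0.13 (-0.51 to 0.25, adjusted p = 0.556, limma), a direction that turned to 0.19 with median-of-ratios scaling, 0.28 with quantile normalization and 0.015 without small intestine replicate 2. The intervals leave room for a difference of up to 1.33 in Cubn and of 0.51 in Amn, and so do not show equal levels. Against liver, small intestine was higher in Cubn by 2.90 (SE 0.38, adjusted p = 0.000434) and in Amn by 5.67 (SE 0.16, adjusted p = 1.79e-07, limma). With few reads in liver these sizes depended on the setting, from 2.498 to 7.61 in Cubn and from 5.08 to 8.98 in Amn, and both were called in every one. Together with Slc9a3 these were 3 of the 9 members called higher in small intestine than in the liver, with a background of 28.3%, and none was called lower, with a background of 7.89%. Kap, Miox and Slc34a1 were called lower with median-of-ratios scaling, Miox and Slc34a1 with quantile normalization, and Miox with a pseudocount of 0.1. Of the genes called in that comparison 78.2% were higher, and 52.0% after median-of-ratios scaling.

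Lung was higher than liver in Lrp2 by 1.43 (SE 0.37, adjusted p = 0.00809, limma) and in Dab2 by 1.96 (SE 0.22, adjusted p = 9.24e-05, limma). These were the only members called higher in lung (with a pseudocount of 0.1 or limma-voom, Amn was too), while 55.5% of all genes tested were, with an all-gene median of 1.13. The median-of-ratios scaling brought that median to 0.00 and the share of higher genes among those called from 88.5% to 50.9%. The differences were then 0.80 for Lrp2 (adjusted p = 0.0248) and 0.76 for Dab2 (adjusted p = 0.00490), and with quantile normalization 0.34 (adjusted p = 0.440) and 0.68 (adjusted p = 0.0140), all under the threshold of 1. With a pseudocount of 0.1 they were 3.31 (adjusted p = 0.000389) and 2.59 (adjusted p = 0.000120), and with limma-voom 4.15 (adjusted p = 0.00987) and 2.66 (adjusted p = 0.000234). Kidney remained above lung in Lrp2 by 3.82 and in Dab2 by 1.91. Both lung libraries were above all small intestine and liver libraries in Lrp2 and Dab2, where kidney and lung together were above the other 2 tissues, a pattern of 13.2% of all genes tested. Kidney and small intestine together stood above lung and liver in Cubn, Amn, Slc4a4 and Slc9a3, and in 4.86% of all genes.

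**Figure D2:**
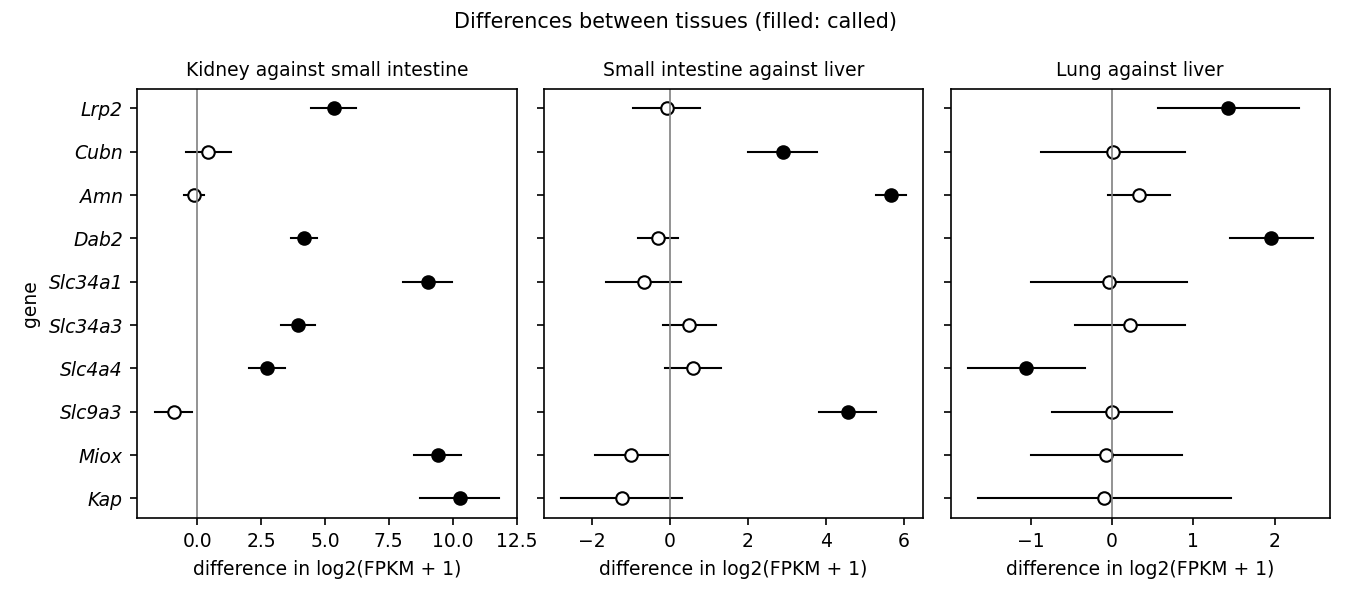
Difference in log2(FPKM + 1) for each gene, with its 95% interval from limma, in kidney against small intestine, small intestine against liver, and lung against liver. Filled points are called, and Slc34a3 passed the filter only through kidney. Cubn, Amn and Slc9a3 are open in the left panel and filled in the middle one, and Lrp2 and Dab2 are filled to the right of 0 in the right panel, where Slc4a4 is filled to the left.

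Macrophages are known to express Dab2, so their markers are given beside it. The list of 6 macrophage genes summed to 24.7 and 23.0 FPKM in kidney, 221 and 183 in lung, 84.6 and 85.8 in the liver and 101 and 67.2 in small intestine, with no marker at 0. Kidney, the tissue with the highest Dab2, thus had the lowest macrophage sum, and lung had the highest sum. The sums of small intestine and liver overlapped, and Dab2 was low in both. The part of macrophages in the lung value of Dab2 was not tested.

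The ratio of the receptor transcripts to each other differed between the organs. Lrp2 over Cubn was 4.44 in kidney replicate 1 and 4.42 in replicate 2, although each gene differed more than 2-fold between these libraries. In small intestine the ratio was 0.00861 and 0.00560. In lung it was 37.9 and 89.6, on 8 and 4 reads of Cubn. The order of megalin and cubilin was therefore reversed between kidney and small intestine in both libraries of each. Lrp2 over Dab2 was 1.82 and 1.01 in kidney and 0.267 and 0.278 in lung. Cubn over Amn was 0.290 and 0.121 in kidney and 0.106 and 0.141 in small intestine, which overlap.

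Of 12 genes listed as partners of the endocytic receptors (chaperone, coat, sorting and recycling proteins), 2 were called above the mean of the other tissues in kidney and none below it, with a background of 8.65% higher and 16.1% lower, and their median log2 difference was -0.02. The number called was 3 with a pseudocount of 0.1, median-of-ratios scaling, quantile normalization or limma-voom, and 1 with a filter of 5. Lrpap1, the chaperone that keeps megalin free of ligand on its way to the surface, was higher by 3.12 (SE 0.11, adjusted p = 1.11e-06, limma), with an FPKM of 102 and 105 in kidney, 31.1 and 31.7 in lung, 8.01 and 8.80 in the liver and 4.36 and 5.08 in small intestine. Clcn5, the endosomal chloride proton exchanger that is mutated in Dent disease, was at 6.03 and 3.84 in kidney and 2.84 and 3.90 in small intestine, which overlap. Its difference from the mean of the 3 tissues was 1.24 (adjusted p = 0.00146, limma), and without kidney replicate 1 it was not called, which left 1 gene. Myo6, an actin motor that moves endocytic vesicles inward, had a difference of 0.94 (adjusted p = 0.0428), under the threshold of 1. The other genes of the list, among them those of clathrin and of early endosomes, are used by all cells.

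Among listed proteins that these receptors bind, several had transcript levels in kidney below the mean of the 3 tissues, where the highest values were those of liver or, for Apoa1, of small intestine. Of 8 listed ligands or carriers 7 were tested, of which 5 were called lower and 1 higher, with a background of 16.1% and 8.65% and a median of -3.27. The number called lower was 4 with a pseudocount of 0.1, median-of-ratios scaling, quantile normalization or limma-voom, where Gc was not called. Apoa1, the main protein of high density lipoprotein, differed by -6.33, Rbp4, the retinol carrier, by -4.07 and Alb, serum albumin, by -3.41 (adjusted p = 1.28e-05, 1.08e-05 and 0.000145, limma). Apoa1 was at 5166 and 5185 FPKM in small intestine and at 3172 and 2572 in liver, against 3.40 and 9.53 in kidney. Alb was at 15.5 and 40.7 FPKM in kidney and at 34646 and 29371 in liver, and it also belongs to the hepatocyte list. In small intestine it was at 10.8 and 12.9, below both kidney libraries. Ttr, transthyretin, was at 52.6 and 94.0 in kidney, above small intestine and lung (at most 9.24), and so was Gc, the vitamin D carrier, at 14.6 and 15.9 against at most 7.22. The gene called higher was Tcn2, which encodes the plasma carrier of vitamin B12 that megalin takes up, and it is named here after its values were seen. Its FPKM was 561 and 553 in kidney, 149 and 156 in small intestine, 125 and 113 in lung and 41.0 and 32.6 in liver, a difference of 2.66 (SE 0.12, adjusted p = 3.17e-06, limma). Gif, which encodes intrinsic factor, was listed at 0 in kidney and liver and at no more than 0.230 in the other libraries, and was not tested.

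The phosphate transporters of the tubule were high in kidney and low in the other organs. Slc34a1 (chr13:55398187-55415592, plus strand, 13 exon blocks) had an FPKM of 987 and 655 in kidney, 2.85 and 0.499 in lung, 1.33 and 1.62 in the liver and 0.525 and 0.548 in small intestine. It differed from the mean of the other tissues by 8.59 (SE 0.34, adjusted p = 1.46e-06, limma). Of its exon length, 11.7% (545 bases) is shared with Pfn3 on the opposite strand, and without strand the reads of that stretch cannot be told apart. Slc34a3 (chr2:25228898-25234364, minus strand, 14 exon blocks) was lower, at 23.9 and 17.9 in kidney, so that Slc34a1 exceeded it 41.2-fold and 36.5-fold in FPKM. In both liver libraries Slc34a3 was at 0, where 3 reads per library would give an FPKM of 0.139 and 0.123, and the kidney mean was at least 151-fold higher than the larger of these.

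Outside the kidney, Slc34a3 was seen mainly in 1 small intestine library, with 24 reads (FPKM 0.899) in replicate 2 against 1 read (0.0453) in replicate 1. That library also held genes of the ileum, the last stretch of the small intestine, chosen for this check after values were seen. Fabp6, the bile acid binding protein of ileal cells, was at 0.223 (1 read) in replicate 1 and 25.4 (138 reads) in replicate 2, and the ileal bile acid transporter Slc10a2 was at 0.309 and 1.62. The intestinal phosphate transporter Slc34a2 was likewise at 2.81 and 23.6 in the same order. Cubn, at 5.20 and 8.50, was higher in replicate 2 as well, while Slc9a3 was at 23.8 and 22.6 and Amn at 49.1 and 60.3. With 1 library of each kind, the part of the stretch of gut in these differences was not tested.

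Slc34a2, the other member of the Slc34 family, was highest in lung, at 242 and 221 FPKM, and was at 0.512 and 0.588 in kidney, a difference of -3.22 in kidney against the mean of the other tissues (SE 0.59, adjusted p = 0.00247, limma). In liver Slc34a2 was at 0.174 and 0.502, below both kidney libraries, so kidney was not its lowest organ. It was the only one of 10 listed genes of phosphate handling called lower in kidney, while 3 were called higher, with a background of 16.1% lower and 8.65% higher. Of the 9 genes that passed the filter without kidney 2 were called higher, and their median was 0.13. Without kidney replicate 1 the number called lower was 2. The genes called higher were Pth1r, the receptor for parathyroid hormone, by 5.91, and Pdzk1, a scaffold of the brush border, by 4.06 (adjusted p = 5.60e-07 and 3.17e-06, limma). Kl, which encodes the co-receptor for the phosphate hormone FGF23, passed only through kidney, and it was at 46.5 and 22.3 in kidney and at most 0.132 in any other library. Pth1r was at 161 and 169 in kidney and at most 3.02 in any other library, so that both kidney libraries were far above the rest.

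Slc4a4 and Slc9a3 move bicarbonate and protons at opposite sides of the tubule cell, and their spread over the organs differed. Slc4a4 (chr5:88886818-89239653, plus strand, 29 exon blocks) had an FPKM of 69.7 and 39.7 in kidney, 5.44 and 9.10 in small intestine, 4.20 and 4.64 in liver and 1.82 and 1.41 in lung. It was thus found in every organ, in an order with no overlap between neighbours. Small intestine and liver were not called apart (0.58, adjusted p = 0.148, limma), and their difference was -0.16 with median-of-ratios scaling. The difference from the mean of the other tissues was 3.47 (SE 0.25, adjusted p = 2.71e-05, limma). It was the only member called lower in lung than in liver, by -1.06 (adjusted p = 0.0136, limma), with a background of 7.21%, and was not called without lung replicate 2 (-0.94) or liver replicate 2 (-0.997). With median-of-ratios scaling it was -2.19 (adjusted p = 0.000161) and with quantile normalization -2.33 (adjusted p = 0.000434). Miox was then called lower too, by -1.13 (adjusted p = 0.0382) and -1.28 (adjusted p = 0.0190, limma). The pancreas also uses Slc4a4, from another start of the gene, and values per gene do not separate the starts. The small intestine libraries held pancreatic transcripts, with a sum of 2958 and 1419 FPKM over 8 acinar genes, against at most 77.2 elsewhere and with no gene of the list at 0. The part of pancreatic tissue in the small intestine value of Slc4a4 was not tested.

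Slc9a3 (chr13:74121457-74169442, plus strand, 18 exon blocks) had its highest values in the gut, with an FPKM of 23.8 and 22.6 in small intestine against 17.4 and 7.83 in kidney. In lung and liver it had 1 or 2 reads per library, an FPKM of at most 0.0352, which is not told from 0. Kidney against small intestine gave -0.93 (95% interval -1.66 to -0.19, adjusted p = 0.0449, limma), just under the threshold on size. The outcome rested on single kidney libraries, at -1.46 (adjusted p = 0.000483) without kidney replicate 1 and -0.40 (adjusted p = 0.0665) without kidney replicate 2. With quantile normalization it was -0.53 (adjusted p = 0.119), and over all settings the adjusted p reached 0.158. Against liver, small intestine was higher by 4.56 (SE 0.32, adjusted p = 1.30e-05, limma), a size that ranged from 4.08 to 9.32 over the other settings.

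Of 12 listed genes of sodium, proton and bicarbonate handling, 6 were called higher in kidney and 1 lower, with a background of 8.65% and 16.1% and a median of 1.12. Car2 and Car14 encode carbonic anhydrases, which form bicarbonate, and differed by 3.14 and 2.37, and Atp1b1, a subunit of the sodium pump, by 2.83 (adjusted p = 6.57e-05, 3.50e-05 and 4.03e-05, limma). The gene called lower was Slc26a6, an apical anion exchanger, by -1.64 (adjusted p = 7.89e-05, limma), with 71.6 and 57.9 FPKM in small intestine and 1.06 and 0.801 in kidney. The number called lower was 2 without kidney replicate 1, without small intestine replicate 2 or without liver replicate 1.

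Miox and Kap were the most abundant members together with Slc34a1. Miox (chr15:89334398-89337015, plus strand, 9 exon blocks) had an FPKM of 982 and 1175 in kidney, 3.91 and 0.829 in lung, 2.18 and 2.11 in the liver and 0.518 and 0.642 in small intestine, a difference of 8.77 (SE 0.33, adjusted p = 1.18e-06, limma). Kap (chr6:133849851-133853762, minus strand, 4 exon blocks) was at 15159 and 31665 in kidney, 82.0 and 17.5 in lung, 33.3 and 50.1 in the liver and 20.1 and 13.9 in small intestine, a difference of 9.48 (SE 0.54, adjusted p = 9.41e-06, limma). Kap alone took 1.07% and 2.24% of the reads on genes in the kidney libraries, and the 10 members together 1.95% and 2.87%. By mean FPKM in kidney, among 24437 genes above 0 there, Kap ranked 9, Miox 27 and Slc34a1 33, whereas Slc4a4 ranked 691, Amn 769, Lrp2 837, Dab2 1216, Slc34a3 1729, Slc9a3 2645 and Cubn 3141. Cubn was thus the member with the lowest mean FPKM in kidney, at 10.3 against 49.6 for Amn, the gene of its anchor. Cubn over Amn was 0.290 in kidney replicate 1 and 0.121 in replicate 2. The ratio of these libraries varied with exon length, as given below, so ranks of long against short genes carry that limit.

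Genes around inositol and androgen response were listed with Miox and Kap. Of 7 genes of inositol handling 6 were tested, 3 were called higher in kidney and none lower, with a background of 8.65% and 16.1% and a median of 1.35. The sodium inositol transporters Slc5a3 and Slc5a11 were higher by 2.04 and 1.94 and Akr1a1, a reductase that acts on the product of Miox, by 1.88 (adjusted p = 0.00355, 2.78e-05 and 7.47e-06, limma). Slc5a3 was at 11.5 FPKM in kidney replicate 1 and 2.54 in replicate 2, and its difference was 1.14 without the former and 2.95 without the latter, called in both cases. Slc5a11 was higher still in small intestine, at 38.5 and 35.6 against 14.1 and 11.8 in kidney. Of 3 genes listed for the androgen response that passed the filter without kidney, 2 were called higher and none lower, with a background of 8.65% and 16.1%. Odc1 (ornithine decarboxylase) was higher by 3.22 and Slco1a1 (an organic anion transporter) by 2.73 above a mean of the 3 tissues, although Slco1a1 was highest in liver, at 50.1 and 81.3 FPKM against 26.5 and 27.0 in kidney, and Gusb (beta-glucuronidase) had a difference of -0.12 (adjusted p = 0.511, limma).

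Other apical and basolateral transporters of the same tubule segment were mostly higher in kidney too. Of 17 genes 15 were called higher in kidney and none lower, with a background of 8.65% and 16.1%. Slc5a2, Slc22a6, Slc22a8 and Slc5a8 passed the filter only through kidney, and of the 13 others 11 were called higher, with a median log2 difference of 3.13 against -0.34 for all genes tested. Slc7a13, an amino acid transporter of the late segment, differed by 8.34, and Slc22a12, the urate transporter, by 7.95 (adjusted p = 8.72e-07 and 7.00e-07, limma). Slc7a13 was at 583 and 667 FPKM in kidney and at most 2.10 elsewhere, and Slc22a12 at 518 and 395 and at most 2.32. Where the reads elsewhere came from was not tested, so the filter may have decided these calls, which are among the 11. Slc22a6, the organic anion transporter, passed only through kidney, where it was at 181 and 167 against at most 0.763 elsewhere. Above the mean of the 3 tissues but higher still in small intestine were 3 amino acid transporter genes, named after their values were seen. Slc6a19 was at 85.8 and 138 there against 80.6 and 48.3 in kidney, Slc7a7 at 43.4 and 53.4 against 32.5 and 26.8, and Slc7a9 at 68.8 and 88.6 against 47.5 and 38.2. Aqp1 and Slc5a12, also named after their values were seen, were called higher but overlapped another tissue. Aqp1 was at 352 and 269 in kidney and 284 and 333 in lung. Slc5a12 was at 66.7 and 31.5 in kidney and 13.3 and 34.2 in small intestine. The 2 genes that were not called, named after their values were seen, were the glucose transporters Slc5a1, at 312 and 524 FPKM in small intestine against 15.8 and 9.90 in kidney, and Slc2a2, at 52.7 and 61.3 against 25.1 and 16.4.

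The kidney libraries differed from each other by gene in a graded way. Replicate 1 over replicate 2 was 2.51 for Lrp2, 2.497 for Cubn, 2.22 for Slc9a3, 1.76 for Slc4a4, 1.51 for Slc34a1, 1.39 for Dab2, 1.34 for Slc34a3, 1.04 for Amn, 0.836 for Miox and 0.479 for Kap. The summed exon length falls in nearly the same order, with 16701 bases for Lrp2, 14935 for Cubn, 10815 for Slc4a4, 7342 for Dab2, 5504 for Slc9a3 and 4676 for Slc34a1 against 2358 for Slc34a3, 1843 for Amn, 1651 for Miox and 707 for Kap. Among all genes tested, the median ratio of the kidney libraries was 1 up to 2000 bases, 1.11 up to 4000, 1.30 up to 8000 and 1.45 above that. In lung and liver the median stayed between 0.952 and 1 in all these classes, and in small intestine it fell from 1.14 to 0.965. Markers of other parts of the nephron had a median ratio of 2.79 for 4 podocyte genes, 3.41 for 3 genes of the distal convoluted tubule, 1.80 for 4 of the thick ascending limb, 1.78 for 4 of intercalated cells and 1.47 for 4 of principal cells. Aqp2 (0.667), Cldn16 (0.862) and Pvalb (0.934) ran the other way. The 17 other transporters of the proximal tubule had a median of 1.31. A difference between the mice in these genes and the effect of transcript length cannot be told apart here.

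Values outside the kidney differed in how they compared with those of other kidney genes. Expressed as a percent of the kidney mean, Slc34a1, Miox and Kap were at 0.347%, 0.362% and 0.350% in lung replicate 1 and at 0.0608%, 0.0768% and 0.0749% in lung replicate 2. In liver they lay between 0.142% and 0.214% and in small intestine between 0.0480% and 0.0858%. A set of 7 further kidney genes (4 organic anion or amino acid transporters and a glucose transporter of the proximal tubule, and Umod and Slc12a1 of the thick ascending limb), chosen after values were seen, had a median of 0.401% and 0.0662% in the lung libraries, 0.104% and 0.0516% in those of small intestine and 0.157% and 0.246% in those of liver. The 3 genes thus lay near the level of this set, of which 5 genes are of the proximal tubule itself. Slc34a1 and Miox did not everywhere follow the order of the set between replicates. In small intestine Slc34a1 was at 0.0640% and 0.0667% and Miox at 0.0480% and 0.0595%, and in liver Miox was at 0.202% and 0.196%. Where the reads behind that level came from was not tested. Lrp2 in lung, at 4.54% and 4.22%, and Dab2 in lung, at 25.3% and 22.5%, were far above it and nearly equal in both lung libraries, and Slc4a4 was between 2.57% and 16.6% in all 6 libraries. Between these lay Dab2 in small intestine and liver, at 1.99% to 4.50%, Amn in lung, at 0.784% and 0.704% on 7 and 8 reads, and Slc34a3 at 1.24% in lung replicate 1 and 4.29% in small intestine replicate 2. Cubn, Amn and Slc9a3 in small intestine were between 50.4% and 189% of the kidney mean.

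**Figure D3:**
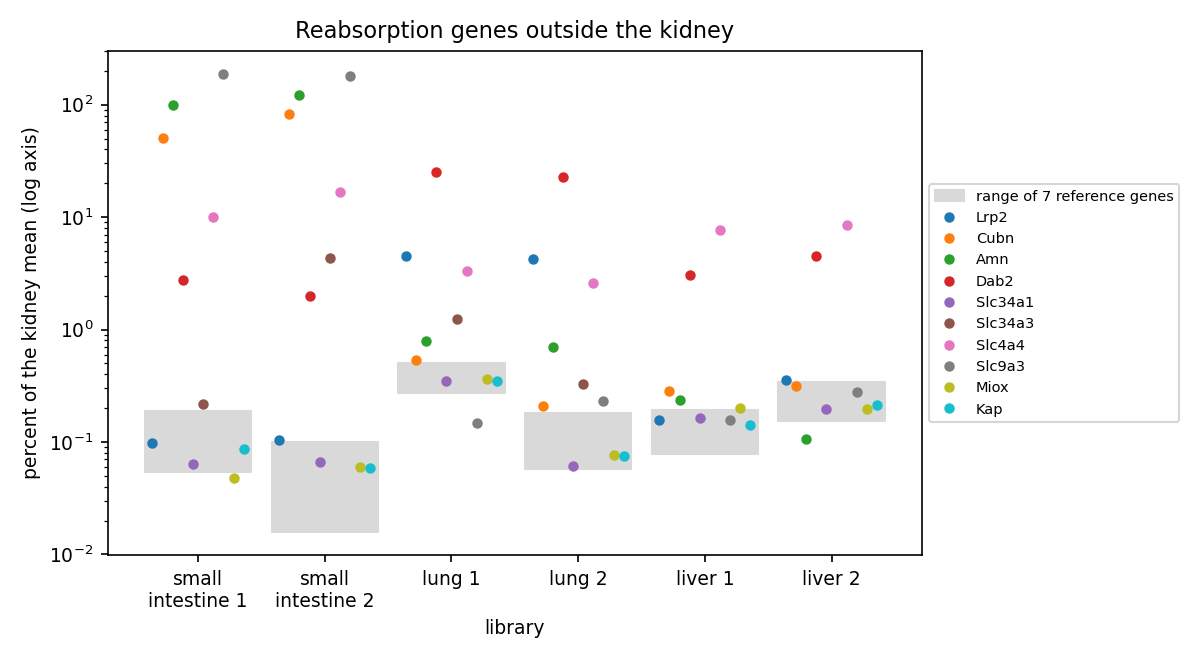
Level of each gene in the 6 libraries of small intestine, lung and liver as a percent of its kidney mean, on a log axis. Grey boxes span the lowest to highest of 7 other kidney genes, and Slc34a3 at 0 in liver is not drawn. Slc34a1 and Kap lie within the boxes in all 6 libraries and Miox in 4 of 6 (it is just below in small intestine replicate 1 and just above in liver replicate 1), while Lrp2 and Dab2 in lung and Cubn, Amn and Slc9a3 in small intestine lie far above.

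The genes most like each member over the 8 libraries were found by the root mean square difference of log2(FPKM + 1), centred on each gene's own mean, among the 16328 genes tested. For Dab2 the nearest gene was Lrpap1, at 0.24, followed by Glb1l2 and Slc26a4. For Lrp2 it was Gcnt1, at 0.28, followed by Mettl7a2 and Galnt11, and Gcnt1 was at 46.9 and 26.1 FPKM in kidney and 2.11 and 1.91 in lung, close to Lrp2 in both. Cubn was nearest to Slc22a4, an organic cation transporter, at 0.25, then to Slc30a2, a zinc transporter, and Aspa. Amn was nearest to Slc7a9, the cystine transporter subunit, at 0.30, then to Erich4 and Lrrc19. For the other members the nearest genes were Acsm2 for Slc34a1 (0.21), Efhd1 for Slc34a3 (0.24), Slc18a1 for Slc4a4 (0.35), Slc7a8 for Slc9a3 (0.20), Akr1c21 for Miox (0.20) and Miox for Kap (0.47). No member of the receptor was among the nearest 3 of another.

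Sequence upstream of the start is given for members that stand for the patterns above, namely Slc34a1 and Miox as genes high in kidney alone among the 4 organs, and Cubn and Slc9a3 as genes high in kidney and small intestine. They are RefSeq promoters of build GRCm38.p6, read 5′ to 3′ on the strand of the gene, limited to bases that no annotated exon of the gene covers. Capitals mark GTTAAT, a part of the site bound by the tubule and gut factor HNF1, in Slc34a1 and Miox, and GGGCGG, the GC box, in Slc9a3, or their reverse complements. No such motif was found in the stretch of Cubn.
Slc34a1, chr13:55399498-55399647, plus strand: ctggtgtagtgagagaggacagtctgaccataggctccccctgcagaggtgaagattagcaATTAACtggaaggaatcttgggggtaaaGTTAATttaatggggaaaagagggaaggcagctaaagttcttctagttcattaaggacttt
Miox, chr15:89334323-89334397, plus strand: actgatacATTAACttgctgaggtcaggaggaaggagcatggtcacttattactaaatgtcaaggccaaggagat
Cubn, chr2:13491877-13492026, minus strand: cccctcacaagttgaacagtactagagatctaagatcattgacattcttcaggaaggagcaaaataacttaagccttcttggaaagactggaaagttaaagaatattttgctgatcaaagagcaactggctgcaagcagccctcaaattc
Slc9a3, chr13:74121263-74121412, plus strand: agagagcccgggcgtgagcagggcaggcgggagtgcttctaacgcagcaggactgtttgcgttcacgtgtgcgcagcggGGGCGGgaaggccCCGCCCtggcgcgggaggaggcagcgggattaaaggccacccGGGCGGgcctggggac
The 10 members have 12 promoters in that collection, because Dab2 and Slc4a4 have more than 1 start. In the 250 bases before the start, on either strand, GTTAAT was found in 3 of the 12 (Slc34a1 at 89 and 61 bases before the start, Miox at 142, and a start of Dab2 at 65) and in 6.43% of all 32851 promoters. The full HNF1 site was in none of the 12 and in 0.00913% of all. TATAAA was in 2 of 12, Kap at 31 bases and Miox at 40, and in 12.4% of all. GGGCGG was in 5 of 12 (Lrp2, Slc4a4, Kap, Amn and Slc9a3) and in 32.7% of all. The motif CAAAGTCCA for HNF4 was in none of the 12 and in 0.384% of all. The motifs share no letters with each other in these stretches, and a match is a description of sequence alone.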

How the data were processed

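Polyadenylated RNA from 4 organs of mice was sequenced, with 2 libraries per organ. By the study's methods, the authors chose reads by sample index, mapped them with STAR 2.5.3a to the Ensembl release 75 mouse genome (GRCm38) and deposited FPKM values, scaled to library size with DESeq2. The counting program and its use of strand are not given in the sources used here. FPKM are not counts, so log2(FPKM + 1) was tested with limma 3.58.1 (R 4.3.3, trended eBayes, all 8 libraries in 1 fit) with Benjamini-Hochberg adjustment over 16328 genes. Reads were recovered from the exon lengths of GENCODE M21, with 94.5% to 96.1% of values under 50 reads whole within 0.02, and 1 alternative, limma-voom on these reads, was chosen after seeing the data. The limma step was tested on simulated data.

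The members and gene lists were chosen with earlier results of these data known. The text names all members, of each pathway list the 3 genes with the largest absolute log2 difference in kidney against the mean of the other tissues and up to 3 called lower (all genes where at most 4 were measured), and the 3 nearest genes for the receptor members or the nearest for the others, with exceptions stated. The ileum genes and the 7 kidney genes were added after values were seen. Gif stands for the symbol Cblif. Results of 2 listed genes are not reported here. The methods say that each mouse gave all 4 tissues, but whether a replicate number marks 1 mouse is not given, so the fit has no animal term and treats libraries of different tissues as independent. Figures used Python 3.11.15 and matplotlib 3.10.9.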

Additional observations from a re-analysis of the deposited data

How the results depend on the processing

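With 2 libraries per organ, the spread is pooled over organs, and low genes were limited by depth. The alternatives were a pseudocount of 0.1, no filter or an FPKM filter of 5, median-of-ratios scaling, quantile normalization, limma without a trend, a replicate block, limma-voom on recovered reads, and leaving out each library. Tissues were taken from shared mice, and whether a replicate number marks 1 mouse is not given. The differences between replicates correlated between organs by -0.22 to 0.05, and with the replicate block 1412 genes were called higher in kidney against the mean of the other tissues, against 1413 without it. The block changed no call of a member or of a listed gene, with all 9 members that passed the filter without kidney again called higher in that comparison. In kidney against the mean of the other tissues, against lung and against liver, the 9 members that passed the filter without kidney kept their call in every setting with all 8 libraries. Slc34a3 was at 4.21 against the mean of the other tissues, 6.63 with a pseudocount of 0.1 and 7.77 with limma-voom, its test being decided by the filter. Without either kidney library Slc34a3, Kl, Slc5a2, Slc22a6 and Slc22a8 were not tested, since they then passed the filter in under 2 libraries.

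The number of members called lower in small intestine than in liver was 0, and became 1 with a pseudocount of 0.1 (Miox), 3 with median-of-ratios scaling (Kap, Miox and Slc34a1) and 2 with quantile normalization (Miox and Slc34a1). For lung against liver, 2 were called higher and 1 lower. With median-of-ratios scaling or quantile normalization 0 were higher and 2 lower (Slc4a4 and Miox), and the cause was not tested. Leaving out 1 library gave 0 to 1 called lower in lung against liver, 0 to 1 in small intestine against liver (Kap, without either lung library) and 0 to 1 in kidney against small intestine (Slc9a3). Among the lists, endocytic partners called higher numbered 2, 3 with a pseudocount of 0.1, median-of-ratios scaling, quantile normalization or limma-voom (Myo6), and 1 with the filter of 5, which removes Clcn5. They numbered 1 to 3 with 1 library left out. Ligands called higher numbered 1, and 2 with quantile normalization (Ttr), and those called lower 5, and 4 with a pseudocount of 0.1, either scaling or limma-voom (without Gc). Genes of sodium, proton and bicarbonate handling called lower numbered 1, 2 with a pseudocount of 0.1 or limma-voom (Slc4a7), and 1 to 2 with 1 library left out, as did those of phosphate handling. Of the differences of all members in the 6 comparisons, 4 turned with scaling, none of them called with the settings of the report. Amn in kidney against small intestine went from -0.13 to 0.19 with median-of-ratios scaling and 0.28 with quantile normalization, and between -0.28 and 0.015 with 1 library left out, positive without small intestine replicate 2. Cubn there, at 0.44, ranged from -0.15 without kidney replicate 1 to 1.04 without kidney replicate 2. Slc4a4 in small intestine against liver went from 0.58 to -0.16 with median-of-ratios scaling and -0.14 with quantile normalization, Cubn in lung against liver from 0.01 to -0.044 and -0.31, and Amn there from 0.34 to -0.33 with quantile normalization, while it was called higher with a pseudocount of 0.1 (1.36) and with limma-voom (1.86), on 1 to 2 reads in liver. In lung against liver, leaving out 1 library also turned Cubn (-0.013 to 0.033), Slc34a1 (-0.72 to 0.64), Slc9a3 (-0.016 to 0.0058), Miox (-0.78 to 0.64) and Kap (-1.18 to 0.99).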
